A study of Rattus norvegicus with 15 samples.

Results

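The genes described here were the 10 genes of the deposited table named Adipoq, Plin1, Plin4, Fabp4, Lep, Cidec, Pparg, Lpl, Lipe and Retn, out of 37991 genes in all. They were chosen by symbol as markers of adipocytes, and they were compared across the 5 groups of the study as a reading of fat in the multifidus, the deep paraspinal muscle. All animals were wild type male Sprague Dawley rats of 12 weeks. The control group (2 libraries) had no injury. The surgery group (2 libraries) had a hemilaminectomy with ligation of the left L5 spinal nerve and no treatment afterwards. The other groups had the same operation followed by injection into the left paraspinal muscles at 2 sites. The pMT group (4 libraries) received mitochondria isolated from human plasma, 25 µg per site and 50 µg in total. The VitD group (3 libraries) received cholecalciferol, 150 µg per site and 300 µg in total. The pMT/VitD group (4 libraries) received both at these doses. The methods of the study place the pMT injection 2 weeks after surgery and the harvest 2 weeks later. The timing of the cholecalciferol injections is not given in the sources used here. The sources do not say which rat or which side of the back each library came from, so p-values measure the spread between libraries only.

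Adipocytes store triglyceride in a single large lipid droplet and release it as fatty acids when the body needs fuel. PPARγ, the product of Pparg, is the nuclear receptor that drives adipocyte differentiation, and it acts as a heterodimer with a retinoid X receptor on many of the other genes listed here. Skeletal muscle can gain adipocytes after injury, denervation or disuse, from progenitor cells that lie between the fibres. Several of the 10 genes are also active outside adipocytes. Fabp4 is used by capillary endothelium and macrophages, Lpl, Lipe and Plin4 by muscle fibres, and Pparg by macrophages. Adipoq, Plin1, Cidec, Lep and Retn are the members most restricted to adipocytes in rodents.

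Promoter windows from the RefSeq annotation of the GRCr8 assembly, 250 bases before to 50 bases after each annotated start, were found for 7 of the 10 genes. Fabp4, Lpl and Lipe had no entry. The counts themselves were made on rn6, so these coordinates are those of GRCr8 only. Each window is printed 5′ to 3′ on the strand of its gene, in lower case with motif matches in capitals. The motifs searched on both strands were AGGTCA (the hexamer of PPARγ and its partners), the full direct repeat of that hexamer (AGGTCA, any base, AGGTCA, which contains the hexamer and so overlaps it), TTGCGCAA (a palindromic site of C/EBP factors), CCAAT and TATAA. The 2 Pparg windows are shown because Pparg was the member whose level differed between groups, at chr4:150096808-150097107 and chr4:150154522-150154821 on the plus strand. Counts per gene do not separate transcripts from the 2 starts.
Pparg, first start: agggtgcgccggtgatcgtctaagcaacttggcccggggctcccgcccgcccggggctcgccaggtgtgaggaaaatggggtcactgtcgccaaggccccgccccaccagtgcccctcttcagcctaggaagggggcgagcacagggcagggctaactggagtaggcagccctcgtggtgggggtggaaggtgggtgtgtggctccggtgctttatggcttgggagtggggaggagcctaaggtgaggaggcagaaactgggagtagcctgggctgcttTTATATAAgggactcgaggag
Pparg, second start: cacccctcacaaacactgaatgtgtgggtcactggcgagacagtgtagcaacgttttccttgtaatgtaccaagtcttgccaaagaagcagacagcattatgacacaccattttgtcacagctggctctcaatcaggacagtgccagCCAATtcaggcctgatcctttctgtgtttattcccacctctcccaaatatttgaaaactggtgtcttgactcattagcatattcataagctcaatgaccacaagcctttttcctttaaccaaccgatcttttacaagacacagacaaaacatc
The windows of Adipoq (chr11:91240120-91240419, minus strand), Lep (chr4:58626288-58626587, plus strand) and Retn (chr12:6508524-6508823, plus strand) are shown because these are the 3 hormone genes. The correlations of Lep and Retn with Adipoq over libraries are given below.
Adipoq: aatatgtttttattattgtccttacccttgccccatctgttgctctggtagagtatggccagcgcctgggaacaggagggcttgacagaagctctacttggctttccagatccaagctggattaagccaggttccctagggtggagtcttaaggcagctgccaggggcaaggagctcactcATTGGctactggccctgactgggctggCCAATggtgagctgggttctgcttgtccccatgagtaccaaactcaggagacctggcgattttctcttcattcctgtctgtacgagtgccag
Lep: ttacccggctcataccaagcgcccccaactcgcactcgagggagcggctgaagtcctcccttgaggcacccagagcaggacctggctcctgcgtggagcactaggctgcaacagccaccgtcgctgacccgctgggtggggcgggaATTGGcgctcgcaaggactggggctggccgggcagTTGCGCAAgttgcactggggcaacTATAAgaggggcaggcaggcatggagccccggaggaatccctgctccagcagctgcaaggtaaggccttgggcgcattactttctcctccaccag
Retn: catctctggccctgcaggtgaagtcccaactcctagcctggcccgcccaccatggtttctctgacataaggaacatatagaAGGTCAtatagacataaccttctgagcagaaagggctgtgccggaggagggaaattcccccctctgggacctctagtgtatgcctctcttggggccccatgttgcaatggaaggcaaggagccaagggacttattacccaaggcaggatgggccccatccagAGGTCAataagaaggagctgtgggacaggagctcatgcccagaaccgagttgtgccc
The first Pparg window held TATAA on both strands in overlapping matches, and the second held CCAAT at position -103 from the start. The Adipoq window held CCAAT at 2 places, positions -69 and -42, one on each strand. The Lep window held TTGCGCAA at position -69 and TATAA at position -45, and it was the only member window with TTGCGCAA, which 0.17% of all 33469 windows in the table hold. The Retn window held AGGTCA at 2 places, positions -169 and -7. No window of a member held the full repeat, which 0.0538% of all windows hold. AGGTCA was in 1 of the 12 member windows (16.2% of all windows), CCAAT in 4 (37.5%) and TATAA in 3 (26.2%). Plin4 had 5 of the 12 windows and Pparg 2. A match is a description of letters and does not show a bound site.

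Levels are given in 2 units. CPM are the deposited read counts as a share of library totals scaled with TMM factors (edgeR's trimmed mean of M-values, which centres the bulk of genes between libraries), and they serve to compare 1 gene between libraries. TPM, as deposited, are per transcript length and serve to compare genes with each other. Total counts ranged from 52342134 to 73557878 per library and the lowest count of any member in any library was 21, for Lep. The tissue read as muscle, with all 10 skeletal fibre markers counted at 28132 or more reads in each library. Libraries pMT 4 and pMT/VitD 4 stood apart from their groups. Over 3129 well-measured genes, the standard deviation of log2 ratios between pMT 4 and the other pMT libraries was 0.365 to 0.55, against 0.178 to 0.314 with the other pMT/VitD libraries. For pMT/VitD 4 these values were 0.371 to 0.479 with its own group and 0.194 to 0.253 with pMT libraries. Labels were kept as given, an exchange of the 2 labels was not tested, and values without both libraries are given for Pparg, Plin1, Plin4, Lep, Fabp4 and Adig.

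Adipocyte transcripts were present in every library at low to high levels. By mean TPM over the 15 libraries, Fabp4, a carrier of fatty acids in the cytosol, was highest at 602. Lpl, the lipase that frees fatty acids from lipoproteins at the capillary wall, followed at 119, and Plin4, a coat protein of lipid droplets, at 44.2. Adipoq, which encodes the hormone adiponectin, came next. Lipe, hormone-sensitive lipase, stood at 9.15 and Retn, resistin, at 6.45. The remaining genes were lower, at 2.73 for Cidec, which enlarges lipid droplets by fusion, 2.50 for Pparg, 1.25 for Plin1, the gatekeeper protein of the adipocyte droplet, and 0.179 for Lep, leptin. The 3 genes highest per length were thus among those that other cell types also use, and the 5 adipocyte-restricted genes summed to between 16.2 and 41.9 TPM in a library. In bulk tissue, fewer adipocytes and less RNA per adipocyte cannot be told apart.

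**Figure D1:**
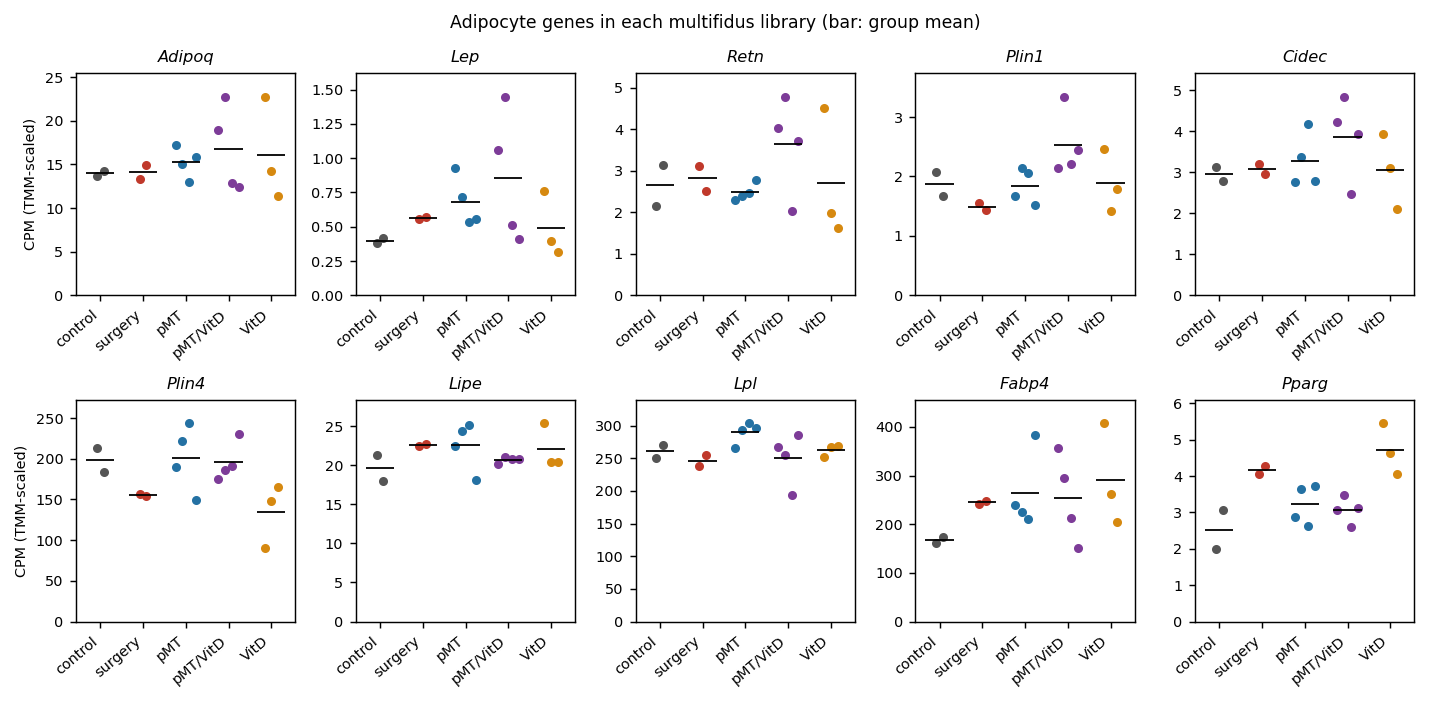
CPM (y axis, linear from 0) of each of the 10 genes in every library, grouped on the x axis as control, surgery, pMT, pMT/VitD and VitD, with 1 point per library and a bar at the group mean. Pparg libraries of the VitD group, at 4.06 to 5.45 CPM, lie above the controls at 1.99 and 3.07, while Adipoq groups overlap throughout.

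Of the 10 genes, 1 was called in a comparison of groups at an adjusted p under 0.05, and it was Pparg. edgeR's quasi-likelihood test called 1 of 10 members between VitD and control, where it called 8.67% of all 17201 genes tested, and 3 members had an unadjusted p under 0.05 against 25.8% of all genes. It called 1 of 10 between pMT/VitD and VitD, where it called 21.9% of all genes, and 2 had an unadjusted p under 0.05 against 35.6%. In the test of any difference among the 5 groups it called 1 of 10 members, against 11.8% of all genes (26.2% at an unadjusted p under 0.05). These shares do not set the members above the genes at large.

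In the other 8 comparisons the quasi-likelihood test called 0 of 10 members. Between surgery and control it called 1.55% of all genes. At an unadjusted p under 0.05, 1 member passed there (17% of all genes), and edgeR's exactTest (36.3% of all genes) and limma-voom (28.7%) each called 3 members, Fabp4, Plin4 and Pparg, and DESeq2 (5.77%) called 0. limma-voom was run with sample quality weights throughout, which give libraries unequal influence. Between pMT and surgery the test called 1.94% of all genes, with 0 members at an unadjusted p under 0.05 (14.3% of all genes), 3 members called by limma-voom (37.7%) and 0 by DESeq2 (4.34%) and exactTest (7.1%). Between pMT/VitD and surgery it called 7.44% of all genes, with 2 members at an unadjusted p under 0.05 (24.8% of all genes), 1 called by DESeq2 (12.8%), 3 by limma-voom (39.5%) and 0 by exactTest (10.8%). More genes fell there (5.03%) than rose (2.4%). Between pMT and VitD it called 8.1% of all genes, with 2 members at an unadjusted p under 0.05 (23.2% of all genes), 2 called by DESeq2 (12.9%), 5 by limma-voom (49.6%) and 0 by exactTest (8.5%). There 5.45% of all genes fell and 2.65% rose. The remaining 4 comparisons had 0% of all genes called. These were VitD against surgery (139 genes or 0.808%, and 0 members, at an unadjusted p under 0.05), pMT/VitD against pMT (1737 genes or 10.1%, and 1 member), pMT against control (528 genes or 3.07%, and 0 members) and pMT/VitD against control (496 genes or 2.88%, and 1 member). Over all genes DESeq2 called 1, 58, 0 and 0 in these 4, exactTest 6, 0, 12 and 4, and limma-voom 405, 6617, 231 and 1865. DESeq2 and exactTest called 0 members, and limma-voom called 3 between pMT/VitD and pMT and 2 between pMT/VitD and control. Without pMT 4 and pMT/VitD 4, the quasi-likelihood test called 3136 genes between pMT/VitD and pMT (18.3%; 1623 higher and 1513 lower) in place of 0, and still 0 members. It then called 4 genes between pMT and control and 11 between pMT/VitD and control.

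Pparg was the member with the smallest p in the test across groups, although Lep had larger fold differences with wider errors. Its level was 1.99 and 3.07 CPM in the controls and 4.07 and 4.27 CPM in the surgery group. It was 2.86, 3.66, 2.63 and 3.73 CPM in the pMT libraries and 3.07, 3.48, 2.60 and 3.11 CPM in the pMT/VitD libraries. It was 5.45, 4.64 and 4.06 CPM in the VitD group. All VitD libraries lay above both controls and above every pMT and pMT/VitD library, and the surgery libraries lay above both groups given pMT as well. Such separation was common over all genes. Groups did not overlap for 52.1% between VitD and control, 20.7% between pMT and VitD and 28.6% between pMT/VitD and VitD. The shares against surgery were 30.4% for pMT and 36.8% for pMT/VitD. Against control, Pparg was 1.87-fold higher in VitD (log2 0.90 ± 0.22 SE, 95% interval 0.43 to 1.37, adjusted p = 0.0247 by edgeR's quasi-likelihood test).

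Pparg was 0.65 times as high in pMT/VitD as in VitD (log2 -0.62 ± 0.18 SE, adjusted p = 0.0238 by the quasi-likelihood test), and without pMT 4 and pMT/VitD 4 this was -0.64 (adjusted p = 0.0237). Across all 5 groups its adjusted p was 0.0419. Between surgery and control the Pparg value was 0.72 (log2, SE 0.24), which did not pass (adjusted p = 0.132), and between pMT and VitD it was -0.55 (SE 0.18, adjusted p = 0.072). Without the 2 libraries that stand apart, the difference between pMT and VitD was -0.64 with an adjusted p of 0.0429. The difference between VitD and surgery did not pass, and those 2 groups overlapped.

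The Pparg calls rested on few libraries. Between VitD and control the adjusted p rose to 0.27 without control 1, 0.0708 without control 2, 0.0836 without VitD 1 and 0.0544 without VitD 2. Between pMT/VitD and VitD it rose to 0.0589 without pMT/VitD 3, 0.115 without VitD 1 and 0.0582 without VitD 2. The log2 difference kept its sign in each of these.

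Macrophage markers were highest in surgery and VitD, the groups where Pparg was highest. The same held for the sum of the fibroblast and progenitor markers given under other observations. Against control, Pparg was higher in pMT (log2 0.35) and pMT/VitD (0.28), neither called. The median log2 difference of the macrophage markers there was -0.07 and -0.30. The 11 markers on the list (Cd68, Adgre1, Csf1r, Cd163, Mrc1, Trem2, Gpnmb, Lyz2, C1qa, C1qb and Cd14) summed to 221 to 231 TPM in the controls, 571 to 574 in surgery, 165 to 316 in pMT, 159 to 275 in pMT/VitD and 462 to 843 in VitD. None of the 11 was at 0 in any library. Between VitD and control 7 of 11 rose and 0 fell, against 5.48% and 3.2% of all genes, and their median log2 difference was 0.96 against -0.01 for all genes tested. Between pMT/VitD and VitD 10 of 11 fell and 0 rose, against 12.2% and 9.66% of all genes, with a median of -1.22 against 0. The 5 adipocyte-restricted genes summed to 19.5 to 21.6 TPM in control, 25.9 to 26.2 in surgery, 18.0 to 26.8 in pMT, 16.2 to 30.1 in pMT/VitD and 19.1 to 41.9 in VitD. On that scale all groups but control and surgery overlapped one another. The sum was not made in CPM, and Adipoq and Retn were its largest parts. Between surgery and control, the log2 ratio of group means of Adipoq was 0.33 in TPM against 0.02 in CPM. For Retn these were 0.398 and 0.0859, and both genes overlapped between surgery and control in CPM. The gap between control and surgery in the sum thus holds for TPM only. The part of macrophages in the Pparg result was not tested.

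**Figure D2:**
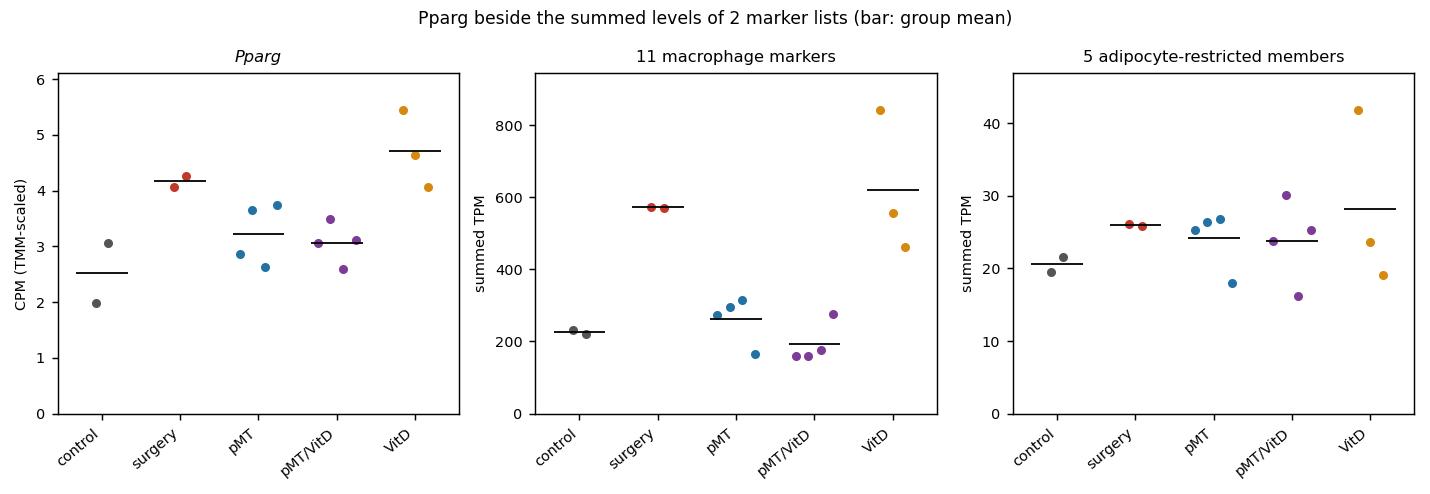
Pparg in CPM (left), the summed TPM of 11 macrophage markers (middle) and the summed TPM of Adipoq, Plin1, Cidec, Lep and Retn (right), 1 point per library with a bar at the group mean, all y axes linear from 0. In the left and middle panels VitD and surgery are the 2 highest groups, and in the right panel the VitD libraries spread from 19.1 to 41.9.

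None of the hormone genes, Adipoq, Lep and Retn, was called between groups by the quasi-likelihood test. Adipoq was at 13.7 and 14.3 CPM in control, 13.3 and 14.9 in surgery, and 17.3, 15.03, 13.0 and 15.8 in pMT. It was at 18.9, 22.7, 12.9 and 12.4 CPM in pMT/VitD and at 22.7, 14.2 and 11.3 in VitD. Neighbouring groups overlapped at every step of the order of group means, from 16.7 ± 4.95 CPM (SD, n = 4) in pMT/VitD to the controls. The highest and the lowest Adipoq libraries of the study, VitD 1 and VitD 3, belonged to the same group. The 95% interval of the log2 difference between surgery and control ran from -0.63 to 0.66, and that between pMT/VitD and VitD from -0.44 to 0.55. The scale mattered for the sign of such values. In TPM, which carry no TMM factor, the Adipoq group means gave a log2 ratio of 0.33 between surgery and control against 0.02 in CPM, and -0.21 between pMT/VitD and surgery against 0.24 in CPM. Plin4, Fabp4, Cidec, Lpl and Retn also changed sign between the 2 scales in the second of these comparisons, and Lpl in the first. Pparg kept its sign on both scales, at 1.02 and -0.84 in TPM against 0.72 and -0.44 in CPM.

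Lep was the least abundant member, with 21 to 78 counts in a library. It was at 0.379 and 0.417 CPM in control, 0.556 and 0.573 in surgery, 0.927, 0.716, 0.537 and 0.555 in pMT, 1.06, 1.45, 0.516 and 0.409 in pMT/VitD, and 0.76, 0.393 and 0.312 in VitD. The pMT/VitD group thus held both of the libraries above 1 CPM and a library below the control value of 0.417. Both controls lay below every surgery and every pMT library. Groups did not overlap for 66.1% of all genes between surgery and control and for 15.2% between pMT and control. The pMT/VitD to control difference was 2.16-fold (log2 1.11, 95% interval 0.04 to 2.18), with an adjusted p of 0.906 by the quasi-likelihood test, and without the 2 libraries that stand apart it was log2 1.36 (adjusted p = 0.142). Retn ranged from 1.61 to 4.78 CPM, and its 3 highest libraries were pMT/VitD 2, VitD 1 and pMT/VitD 1. Its group means were 2.66 CPM in control, 2.82 in surgery, 2.48 in pMT, 3.65 in pMT/VitD and 2.71 in VitD, and each group overlapped the next in that order of level.

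Genes of the lipid droplet coat gave 2 different patterns. Plin1 was at 2.07 and 1.67 CPM in control, 1.55 and 1.43 in surgery, and 1.67, 2.15, 2.05 and 1.52 in pMT. It was at 2.14, 3.34, 2.21 and 2.45 CPM in pMT/VitD and 2.47, 1.41 and 1.80 in VitD. Every pMT/VitD library lay above both surgery libraries, by 1.70-fold in the fit (log2 0.77 ± 0.25 SE), with an unadjusted p of 0.00909 and an adjusted p of 0.0818 by the quasi-likelihood test. Groups without overlap were common there, at 36.8% of all genes and 4 of 10 members. Without the 2 libraries that stand apart the value was 0.78 (adjusted p = 0.0568). The separation of Plin1 holds for CPM only. In TPM it ran from 1.026 to 1.678 in pMT/VitD and from 1.034 to 1.119 in surgery, with a log2 ratio of group means of 0.33.

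Plin4 was lowest in the VitD group. It was at 213 and 183 CPM in control, 156 and 155 in surgery, 189, 221, 243 and 149 in pMT, 175, 186, 192 and 231 in pMT/VitD, and 90.7, 148 and 166 in VitD. All pMT/VitD libraries lay above all VitD libraries in CPM, while pMT overlapped VitD through pMT 4 at 149 CPM. Between pMT/VitD and VitD, groups did not overlap for 28.6% of all genes. In TPM these groups overlapped for Plin4, at 32.4 to 58.1 in pMT/VitD and 25.8 to 45.8 in VitD. The quasi-likelihood test gave log2 0.54 ± 0.20 SE for pMT/VitD against VitD (adjusted p = 0.0666) and 0.57 ± 0.20 SE for pMT against VitD (adjusted p = 0.0932). Without both libraries that stand apart the difference between pMT and VitD became 0.68 with an adjusted p of 0.0239. Plin4 also passed there with pMT 4 alone left out, with VitD 3 left out, and by DESeq2 and limma-voom. Cidec ranged from 2.11 to 4.84 CPM, with group means between 2.96 in control and 3.87 in pMT/VitD, and every group overlapped the next.

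The lipases were the steadiest members. Lpl ranged from 194 to 304 CPM, a 1.57-fold span over the 15 libraries, and Lipe from 18.0 to 25.3 CPM, a 1.41-fold span. The 4 pMT libraries of Lpl, at 266, 294, 304 and 297 CPM, lay above both surgery libraries at 238 and 255, with a fitted log2 difference of 0.23. Its adjusted p was above 0.05, and by limma-voom, which called 37.7% of all genes in this comparison, Lpl was called. Lipe in pMT/VitD lay within 20.2 to 21.1 CPM, inside the span of the controls and pMT libraries.

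Fabp4 varied widely within groups. It was at 162 and 173 CPM in control and 242 and 248.6 in surgery. It was at 239, 224, 211 and 384 CPM in pMT, 356, 296, 213 and 152 in pMT/VitD, and 407, 262 and 204 in VitD. Control was lower than surgery, pMT and VitD without overlap, but pMT/VitD 4 was the lowest library of all. Against control the VitD value was 1.74-fold (log2 0.80 ± 0.35 SE, adjusted p = 0.173 by the quasi-likelihood test) and the surgery value was 0.55 on the log2 scale. Without pMT 4 and pMT/VitD 4 the value against control was 0.44 for pMT (adjusted p = 0.836), from 0.66 with them, and 0.80 for pMT/VitD (adjusted p = 0.121), from 0.60. Endothelial markers, from cells that use Fabp4, summed to 175 to 184 TPM in control, 261 to 262 in surgery, 159 to 283 in pMT, 149 to 219 in pMT/VitD and 240 to 308 in VitD. On the same TPM scale Fabp4 was at 694 in pMT 4 and 651 in pMT/VitD 1, against 359 and 383 in the controls. The endothelial sum in those libraries was 159 and 157 TPM, below the controls. It was not made in CPM, so its order against the controls holds for TPM only. In pMT 4 and pMT/VitD 1 shorter genes stood higher over all genes tested. Spearman's correlation of log2 CPM, less each gene's mean, with gene length was -0.322 and -0.394. The part of endothelium in the Fabp4 values was not tested.

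**Figure D3:**
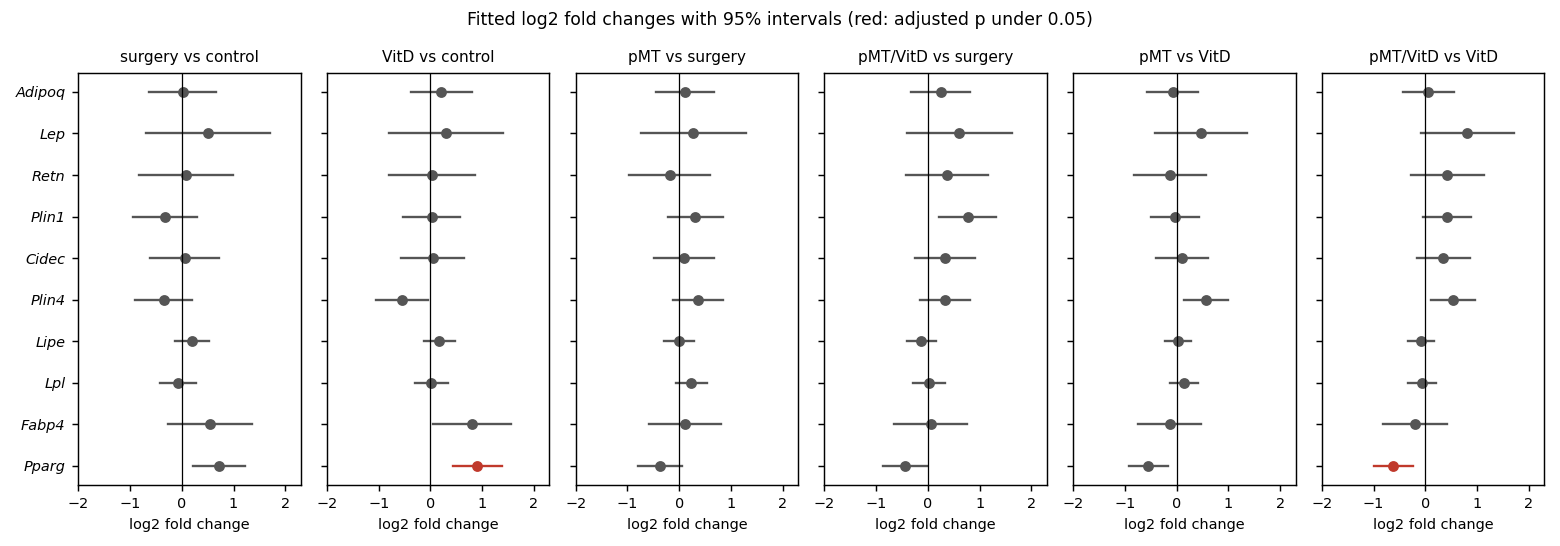
Fitted log2 fold changes (x axis, dots) with 95% intervals (lines) of the 10 genes (y axis) in 6 comparisons of groups, with those at an adjusted p under 0.05 in red. The 2 red intervals are Pparg in VitD against control (0.43 to 1.37) and in pMT/VitD against VitD (upper end -0.24).

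Between control and surgery, 6 of 10 members had groups that did not overlap, beside 66.1% of all genes. The counts were 3 between VitD and control (52.1% of all genes), 2 between pMT and surgery (30.4%), 2 between pMT/VitD and VitD (28.6%), 1 between pMT and VitD (20.7%), 0 between VitD and surgery (15.9%), 2 between pMT and control (15.2%), 1 between pMT/VitD and control (9.2%) and 0 between pMT/VitD and pMT (4.86%). Across the members the median log2 difference was 0.07 between surgery and control, 0.11 between pMT and surgery, 0.04 between VitD and surgery and 0.29 between pMT/VitD and surgery, beside -0.01, 0.02, 0.00 and 0.00 for all genes tested. Direction was mixed, with 7 members higher and 3 lower in surgery than in control and 8 higher and 2 lower in pMT/VitD than in surgery. These medians and directions rest on TMM scaling. In TPM, only Plin1 (log2 ratio of group means 0.33) and Lep (0.12) were higher in pMT/VitD than in surgery, and all other members were lower. The effect of pMT with cholecalciferol against that without was also tested for each gene as an interaction. By the quasi-likelihood test 0 of 10 members and 0 of all genes passed, and 888 genes had an unadjusted p under 0.05, none of them a member.

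Variation between libraries was shared by several members. Over the 15 libraries, which share depth and composition effects, Pearson's r of log2 CPM with Adipoq was 0.85 for Lep, 0.74 for Fabp4, 0.72 for Retn and 0.58 for Cidec. It was 0.44 for Plin1, 0.30 for Pparg, 0.18 for Lipe, -0.01 for Lpl and -0.49 for Plin4. Without the 2 libraries highest in Adipoq, VitD 1 and pMT/VitD 2, r was 0.85 for Lep, 0.66 for Fabp4, 0.43 for Retn, 0.31 for Cidec, -0.01 for Pparg and -0.18 for Plin1. The values for Lep and Fabp4 moved little, and those for Retn, Cidec, Pparg and Plin1 fell. With group means removed, r over the 15 libraries was 0.94 for Lep, 0.80 for Fabp4, 0.77 for Retn, 0.57 for Cidec, 0.55 for Pparg, 0.43 for Plin1 and -0.75 for Plin4. Library pMT/VitD 2 was the highest for Plin1, Lep, Cidec and Retn, and VitD 1 for Adipoq, Fabp4, Pparg and Lipe. Plin4 ran the other way, being lowest in VitD 1.

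**Figure D4:**
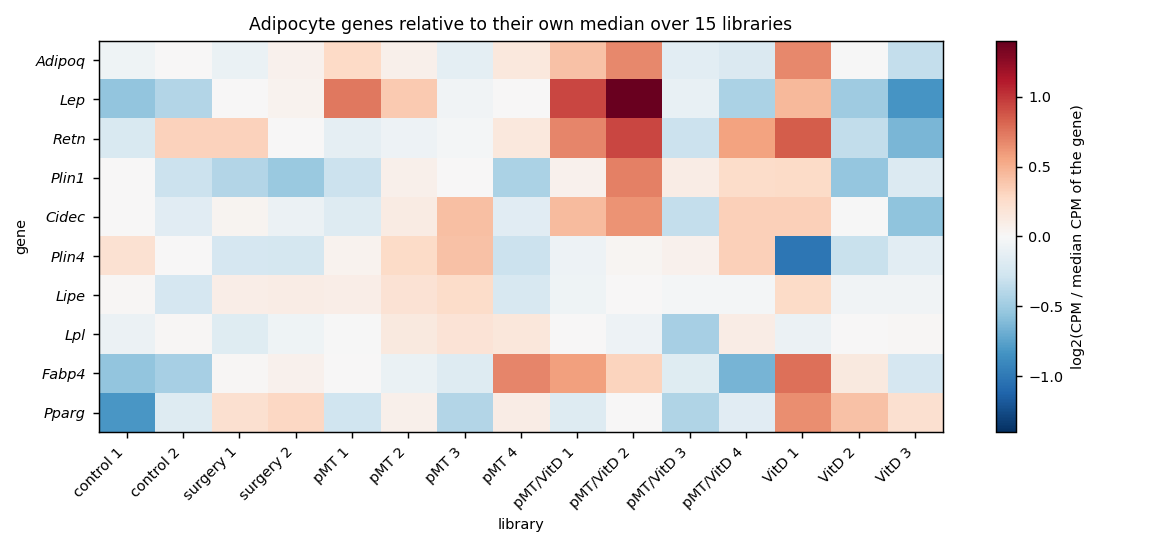
Each gene (rows) in each library (columns) as log2 of its CPM over its own median CPM in the 15 libraries, with red above and blue below the median on a scale from -1.4 to 1.4. The columns pMT/VitD 2 and VitD 1 are red for most genes, and Plin4 in VitD 1 is the deepest blue.

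By the same measure, the genes outside the list most like the mean of Adipoq, Plin1 and Cidec over 15 libraries were Tapbpl (r = 0.90), Erap1 (0.86), Igtp (0.86), Rpp38 (0.83), Ogfr (0.82) and Rps19bp1 (0.82). Over the 13 libraries without VitD 1 and pMT/VitD 2 these were 0.76, 0.82, 0.73, 0.63, 0.83 and 0.56. Tapbpl and Erap1 take part in loading peptides on MHC class I, and Igtp is a GTPase induced by interferon.

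Among 18 other genes of white adipocytes, 16 could be tested, and some passed in a comparison. Cfd, adipsin or complement factor D, which adipocytes and macrophages secrete, was the clearest. It was at 32.9 and 28.1 CPM in control and 67.7 and 64.4 in surgery. It was at 29.2, 32.6, 38.5 and 29.3 CPM in pMT, 42.9, 50.4, 27.6 and 41.2 in pMT/VitD, and 81.4, 60.9 and 53.5 in VitD. All surgery and VitD libraries lay above all libraries of the other 3 groups. Cfd rose 2.17-fold in surgery against control (adjusted p = 0.0379) and 2.14-fold in VitD against control (adjusted p = 0.0126), and it fell in pMT to 0.491 times surgery (adjusted p = 0.0199) and to 0.497 times VitD (adjusted p = 0.00467), all by the quasi-likelihood test. It was the only gene of the 16 called between surgery and control (1.25% of all genes rose) and between pMT and surgery (1.55% of all genes fell). The call between surgery and control was lost with the replicate number as a block and when any of its 4 libraries was left out, with log2 values from 1.01 to 1.38 over 14 alternatives, that between VitD and control was lost without control 1 or control 2 and with only those groups fitted, and that between pMT and surgery was lost with the block and without surgery 1, surgery 2, pMT 1 or pMT 2. The call between pMT and VitD was kept in all 18 alternatives.

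Other members of that list went in different directions. Of the 16 tested, 1 rose and 2 fell in pMT/VitD against VitD, where 9.66% of all genes rose and 12.2% fell. For pMT against VitD 1 rose and 1 fell (2.65% and 5.45% of all genes). For VitD against control 2 rose and 0 fell (5.48% and 3.2%). For pMT/VitD against surgery 0 rose and 2 fell (2.4% and 5.03%). Adig, adipogenin, a small membrane protein of adipocytes, was at 12.5 and 11.1 CPM in control, 5.49 and 5.07 in surgery, 12.0, 8.69, 6.95 and 24.4 in pMT, 20.5, 17.9, 14.6 and 11.03 in pMT/VitD, and 2.54, 4.96 and 6.27 in VitD. It rose in pMT/VitD against VitD by 3.49-fold (log2 1.81 ± 0.40 SE, adjusted p = 0.00682), and this call was kept in all 18 alternatives. It also rose 2.83-fold in pMT against VitD (adjusted p = 0.0332), a call lost without pMT 1, pMT 4, VitD 1 or VitD 2, with only those groups fitted, with no filter on counts and with the replicate number as a block. Without pMT 4 and pMT/VitD 4 the Adig difference in pMT against VitD was log2 0.996 (adjusted p = 0.033). Sncg, gamma-synuclein, rose in VitD against control (log2 1.31, adjusted p = 0.0201), from 6.23 and 5.47 CPM to 18.4, 13.7 and 11.5, a call lost without control 1, control 2 or VitD 1 and with only those groups fitted. Tmem45b fell in pMT/VitD against surgery (log2 -1.19, adjusted p = 0.0155), a call lost without surgery 1 or surgery 2 and with the block. For this list the median log2 difference between surgery and control was 0.20, and that between pMT/VitD and surgery 0.17.

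Among genes of lipid breakdown and storage, at most 3 of 13 were called in a comparison. Pnpla2, adipose triglyceride lipase, which opens the breakdown of stored fat, was at 46.8 and 40.3 CPM in control, 35.2 and 36.6 in surgery, 43.5, 45.5, 45.8 and 44.0 in pMT, 47.3, 49.3, 45.6 and 45.7 in pMT/VitD, and 32.0, 34.3 and 34.5 in VitD. Every library given pMT lay above every surgery and VitD library. Pnpla2 rose in pMT/VitD against VitD (log2 0.48 ± 0.08 SE, adjusted p = 0.00133) and in pMT against VitD (0.41, adjusted p = 0.00657), both lost with scaling by library totals alone. Fitm1, a protein of droplet formation in muscle, rose 1.60-fold in pMT/VitD against VitD (adjusted p = 0.0048), a call kept in all 18 alternatives. Of the 13 tested genes of this list 2 rose and 0 fell in that comparison, near the 9.66% of all genes that rose. Between pMT and VitD 3 rose and 0 fell, where 2.65% of all genes rose. Between VitD and control 0 rose and 2 fell, where 3.2% of all genes fell.

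Among genes of fat synthesis, Scd and Scd2 encode stearoyl-CoA desaturases, which make monounsaturated fatty acids. Scd2 was at 36.9 and 36.7 CPM in control, 75.2 and 76.6 in surgery, 38.7, 40.05, 40.8 and 40.5 in pMT, 35.1, 26.4, 40.6 and 34.4 in pMT/VitD, and 142, 82.5 and 60.7 in VitD. No library of control or of a group given pMT reached the lowest of surgery or VitD. Scd2 was 0.359 times as high in pMT/VitD as in VitD (adjusted p = 0.000553) and 0.421 times as high in pMT as in VitD (adjusted p = 0.00361), by the quasi-likelihood test and in all 18 alternatives of each. Scd was 0.199 times as high in pMT/VitD as in VitD (adjusted p = 0.00434), also in all 18 alternatives. Its libraries ran from 8.45 CPM in pMT/VitD 2 to 179 in VitD 1. Of the 18 genes of this list 3 rose and 4 fell in that comparison, where 9.66% of all genes rose and 12.2% fell. Those that rose were Dgat1 (23.0 to 27.8 CPM in pMT/VitD, 17.3 to 20.9 in VitD), Srebf1 (82.8 to 139 and 41.3 to 82.4) and Mlxipl (8.34 to 17.7 and 3.38 to 8.22). The median log2 difference of the list was 0.14.

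Of 6 genes listed as adipokine receptors, 1 rose and 1 fell in pMT/VitD against VitD, where 9.66% of all genes rose and 12.2% fell. In pMT/VitD against surgery 1 rose and 0 fell (2.4% and 5.03%), and in VitD against control 0 rose and 1 fell (5.48% and 3.2%). Cap1 fell in pMT/VitD against VitD, at 38.1 to 49.5 CPM against 49.9 to 74.6. Adipor1, a receptor for adiponectin, was at 264 and 254 CPM in control, 172 and 175 in surgery, 213, 205, 197 and 212 in pMT, 280, 318, 263 and 272 in pMT/VitD, and 126, 173 and 192 in VitD. Control and pMT/VitD lay above all other groups without overlap. It rose 1.73-fold in pMT/VitD against VitD (adjusted p = 0.00141), in all 18 alternatives, and 1.63-fold against surgery (adjusted p = 0.0151), a call lost without surgery 1 or surgery 2, with the block and with scaling by library totals alone. It was 0.631 times as high in VitD as in control (adjusted p = 0.0196), a call lost without either control, with only those groups fitted or with scaling by library totals alone. Its ligand, Adipoq, overlapped between all of these groups.

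**Figure D5:**
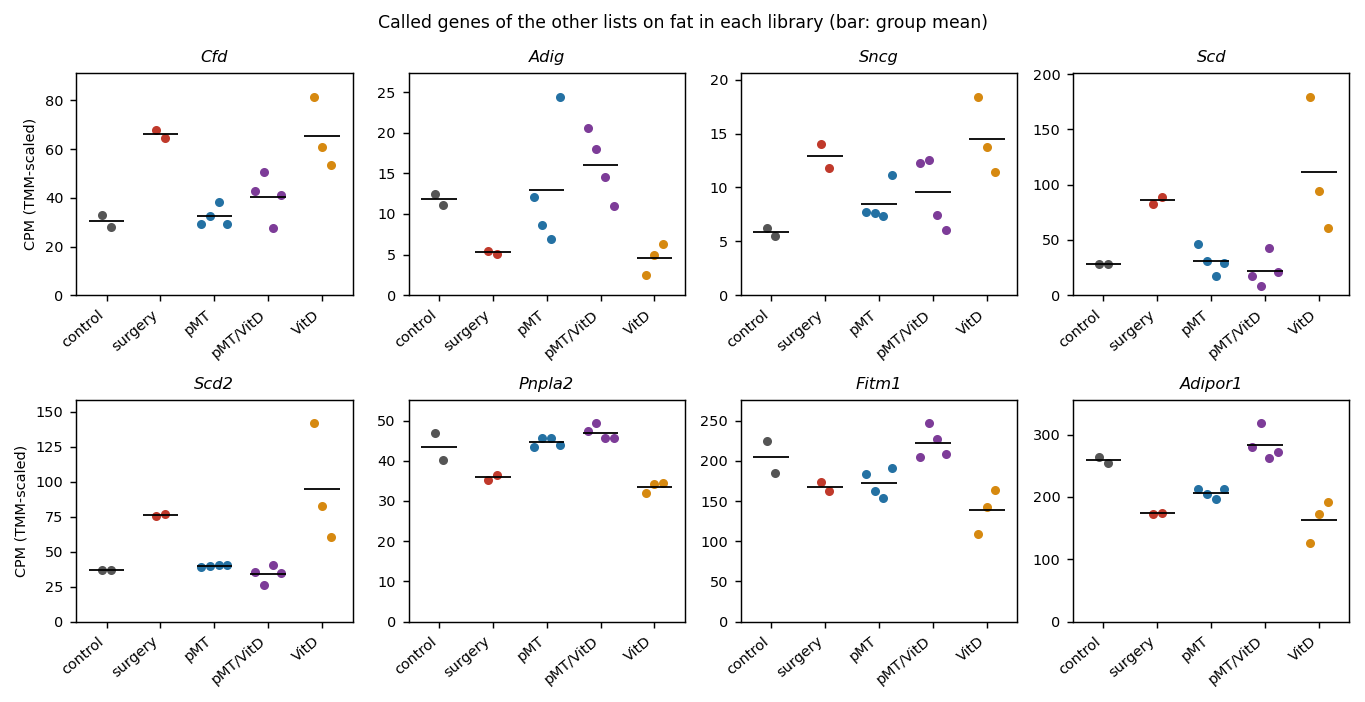
CPM (y axis, linear from 0) of 8 called genes from the other lists on fat, by group on the x axis, with 1 point per library and a bar at the group mean. Cfd and Scd2 are high in surgery and VitD, and Pnpla2 and Adipor1 are low in the same groups.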

How the data were processed

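Multifidus RNA was sequenced as paired-end reads in 15 libraries. Per the submitters' processing notes and methods, the authors used Trimmomatic 0.38 for trimming, HISAT2 2.1.0 for mapping to rn6 and StringTie 2.1.3b for quantifying genes of the RefSeq annotation. Strand handling is not given in the sources used here, so genes that overlap others are uncertain. The deposited table holds read counts per gene without normalization, which were used for all tests, and TPM, scaled by the authors, used for levels between genes. Another 15 deposited columns hold FPKM and were not used.

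The software was edgeR 4.0.16, with DESeq2 1.42.0 and limma 3.58.1 for alternatives, under R 4.3.3. Genes passing filterByExpr (17201 of 37991) were fitted with a mean per group over all 15 libraries, with TMM factors and the robust quasi-likelihood F-test, for 10 comparisons of groups. Each comparison was adjusted over all genes tested by the Benjamini-Hochberg method and called at 0.05. Log2 CPM used a prior count of 2. All 10 members passed the filter. The closest pair of libraries within a group, surgery 1 and surgery 2, still differed beyond sampling noise (chi-squared per gene 4.66). The other pairs ran from 21.8 (the controls) to 446 (pMT 3 and pMT 4). None was counted as a duplicate, but this check cannot tell separate rats from separate preparations of the same rat.

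All 10 members are named, with the 3 most abundant and all called genes of each other list at most, and the 6 genes most like Adipoq, Plin1 and Cidec. Members and lists were chosen with earlier results of these data known. Alternatives were other scalings, filters, tools, a correction for gene length, a replicate block, fewer groups, each library left out, and both libraries that stand apart left out. The replicate numbers did not pair samples.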

Additional observations from a re-analysis of the deposited data

Results flagged for a closer look

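Fabp4 in library pMT 4 stood at 384 CPM (383.997), while the other 3 pMT libraries lay between 211 and 239. The gap to the nearest library was 0.84 of the range of the group, above Dixon's 95% critical value for 4 samples. Of 20 such sets of 4 libraries (10 genes in 2 groups) 1 passed, which is the number that chance gives. Library pMT 4 is also one of the 2 that stood apart from their groups over all genes, and it had the highest share of counts from the mitochondrial genome, 22.6%. In deposited TPM the library stood closer to the others, at 694 against 597 to 616. The part of either in this value was not tested.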

How the results depend on the processing

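Scaling by library totals alone moved the median log2 difference of all genes by up to -0.34 (pMT/VitD against VitD). Member counts under it were 1 between surgery and control, 1 between pMT/VitD and surgery, 2 between pMT/VitD and VitD (Lpl, Pparg), 1 between pMT and VitD, and 2 between VitD and control (Fabp4, Pparg). It reversed Cidec in pMT/VitD against VitD (log2 fold change -0.01636) and Lpl in pMT against VitD (-0.01683), neither called. With the trend over gene length removed, counts were 3 between pMT/VitD and VitD, 3 between VitD and control and 3 among all groups (Fabp4, Plin4 and Pparg in each), and 1 between pMT and VitD (Plin4). With a fold change of at least 2, counts were 0 for VitD against control and 0 for pMT/VitD against VitD. With only the 2 groups compared, they were 3 between surgery and control and 0 between VitD and control. exactTest gave 3 between surgery and control, where it called 36.3% of all genes. limma-voom with quality weights gave 3 for surgery against control, 3 for pMT against surgery, 3 for pMT/VitD against surgery, 3 for pMT/VitD against pMT, 7 for pMT/VitD against VitD, 5 for pMT against VitD, 3 for VitD against control, 2 for pMT/VitD against control and 7 among all groups, where it called 66.7% of all genes. It also reversed Plin1 in VitD against surgery (-0.03137), which was not called. DESeq2 gave 1 for pMT/VitD against surgery (Plin1), 2 for pMT/VitD against VitD and 2 for pMT against VitD (Plin4 and Pparg in both). Without both libraries that stand apart, pMT against VitD gave 2 (Plin4, Pparg). The causes of these changes were not tested. Leaving out 1 library at a time gave 0 to 1 member between VitD and control, 0 to 2 between pMT/VitD and VitD, 0 to 2 between pMT and VitD (1, Plin4, without pMT 4 and 2, Plin4 and Pparg, without VitD 3) and 0 to 1 among all groups, where the Pparg call (adjusted p = 0.0419) was lost without 10 of the 15 libraries. The replicate numbers share only a number (correlations of deviations mostly near 0), and with the number as a replicate block the counts stayed at 1 member for VitD against control and 1 for pMT/VitD against VitD, while all genes called between pMT and surgery went from 334 to 78. The filters on counts and RLE factors changed no member count. Of 1670 fold changes of members under alternatives, 137 changed sign, 1 of them where the gene was called. Depth limits Lep most, at 21 to 78 counts.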

Other observations

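Transcription factors that act in adipocyte differentiation, many of which muscle also uses, split between directions in pMT/VitD against VitD, where 3 of 12 rose and 2 fell (9.66% and 12.2% of all genes). Cebpd, an early factor of the programme, rose 1.87-fold (adjusted p = 0.015 by edgeR's quasi-likelihood test) and Rxrg, a retinoid X receptor, 1.85-fold (adjusted p = 0.0134). Ppard, a relative of Pparg active in muscle, rose 1.52-fold (adjusted p = 0.0201). Klf5 was 0.426 times as high (adjusted p = 0.00946) and Ebf1 0.715 times (adjusted p = 0.00831). Klf5 went from 3.61 and 2.77 CPM in control to 13.1, 7.28 and 5.58 in VitD, and rose there (log2 1.44, adjusted p = 0.0293). Its call in pMT/VitD against VitD was lost without VitD 1, and that in VitD against control without control 1, control 2 or VitD 1 and with only those groups fitted. With only the groups compared, the calls of Cebpd, Rxrg, Ppard and Ebf1 were lost. The Ebf1 call was also lost without VitD 1 and with the length trend removed, the Rxrg call with scaling by library totals, and the Ppard call with that scaling and without VitD 1 or VitD 2.

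Of the 8 brown adipocyte genes, several are also used by muscle, such as Cpt1b, the muscle form of the enzyme that admits fatty acids to mitochondria, at 57.7 to 123 TPM. Ucp1, the uncoupling protein that defines brown fat, had at most 1 count in a library, and Elovl3 was at 0 in all of them, which allows up to 3 counts per library. Dio2, a deiodinase that activates thyroid hormone, rose in VitD against control (log2 2.74 ± 0.70 SE, adjusted p = 0.0288) at low levels, 0.126 and 0.067 CPM against 1.13, 0.567 and 0.26. This call was lost without control 1, control 2, VitD 1 or VitD 2 and with only those groups fitted.

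Fibroblast and progenitor markers, which include the cells that adipocytes in muscle arise from, summed to 764 to 830 TPM in control, 1047 to 1071 in surgery, 610 to 1016 in pMT, 498 to 857 in pMT/VitD and 1061 to 1348 in VitD. In pMT/VitD against VitD 8 of 10 fell and 0 rose, where 12.2% of all genes fell and 9.66% rose, and in VitD against control 3 of 10 rose and 0 fell, where 5.48% rose and 3.2% fell.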
